A study of Mus musculus with 6 samples.

Results

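The neurotrophins and the glial cell line-derived neurotrophic factor (GDNF) family were followed through 8 genes of synovial fibroblasts: the receptor gene Ngfr, the ligand genes Bdnf, Ntf3 and Gdnf, and the receptor genes Ntrk2, Ntrk3, Sort1 and Gfra1. They were taken by symbol from a table of 24348 genes, and all 8 were in it. The members were selected on the difference between the groups in these same libraries, with Ngfr at the centre, so their group differences are given as a description and without a p-value. RNA came from fibroblasts sorted by flow cytometry out of collagenase-digested knee synovium, the membrane that lines the joint, of mice labelled C57BL/6, which the methods give as wild-type on the C57BL/6J background. In 3 libraries (IC) the mice had received immune complexes of ovalbumin and rabbit antibodies to it through a tail vein, and in 3 libraries (vehicle) the mice were controls given the vehicle. The strain was the same in both groups, and no altered allele and no agent beside the complexes was named. The study used mice of both sexes, and adult mice for its in vivo work unless it mentioned another age. The labels do not give the age in these groups. They also give neither the time after the injection, the gate of the sort nor whether a library holds cells of 1 mouse or of several, so the spread between libraries may be partly technical.

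Neurotrophins are secreted as proneurotrophins, which proteases cut to the mature ligands. Mature ligands signal through Trk receptor tyrosine kinases, BDNF through TrkB (Ntrk2) and neurotrophin 3 (Ntf3) mainly through TrkC (Ntrk3), while p75 (Ngfr) binds all of them with lower affinity and, together with sortilin (Sort1), binds the uncut forms. GDNF binds the anchored co-receptor GFRA1, and this complex acts on the Ret kinase or on NCAM1. In joints these ligands are known as factors that keep sensory nerve endings alive and set their sensitivity, and p75 is also known from mesenchymal and perivascular cells.

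Total counts ran from 40114331 to 56714304 per library. Of the marker lists read, that of fibroblasts had the highest sum. The summed level of 8 fibroblast markers, Pdgfra among them, lay between 43900 and 54800 CPM (counts scaled to the same total in every library). Against this stood 33.1 to 52.4 CPM for the macrophage and leukocyte markers, of which 6 of 9 were in the table. Markers of other cells were present too. They summed to 501 to 668 CPM for mural cells, 208 to 335 for endothelial cells and 34.5 to 144 for muscle satellite cells and myoblasts. By the Wald test of DESeq2 with Benjamini-Hochberg adjustment, 419 of 19925 tested genes passed an adjusted p of 0.05, 205 of them higher and 214 lower after IC, while edgeR's quasi-likelihood test called 37. The median log2 fold change of all tested genes was -0.0019. The library vehicle 2 stood apart: a surrogate variable took the value 0.9079 there and lay between -0.2622 and -0.1294 in the other libraries. The number of surrogate variables was set to 1 and was not estimated. Fold changes without it are given for Ngfr, the Trk genes and several other genes that were highest in it. No correlation is given without it, since only 5 libraries would remain.

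Ngfr was the receptor gene with the widest gap between the groups. It lies on the minus strand of chromosome 11 (chr11:95568818-95587735, GRCm38) and has 1 annotated transcript of 3446 bases. Its normalized count, the count divided by the library's size factor, was 1221, 747 and 1376 in the IC libraries and 2511, 5783 and 3498 in the vehicle libraries. Every IC library thus lay below every vehicle library, and the highest vehicle value was in the library that stood apart. Its mean over the IC libraries was 1115 ± 328, against 3931 ± 1678 over the vehicle libraries (SD, n = 3 in either group). That is 3.53-fold lower after IC, a log2 fold change of -1.82 ± 0.431 (SE). Without vehicle 2 the log2 fold change was -1.43, and over the 6 fits that left out 1 library each it ran from -2.06 to -1.43. In bulk RNA, fewer cells of a type that carries the transcript and less transcript per cell cannot be told apart. Ngfr also varied more among libraries of 1 group than most genes: its pooled SD within groups was 0.541 on the log2 scale, against a median of 0.151, and only 3.14% of the 13435 genes that averaged 100 or more normalized counts had a larger one.

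Ntrk2, the TrkB gene, is on the plus strand of chromosome 13 (chr13:58806569-59133970). Its normalized counts were 10522, 10165 and 10889 after IC and 11659.6, 15724.5 and 14128 after vehicle. The groups did not overlap, and the IC libraries lay close together, with a coefficient of variation of 3.44% against 14.8% in the vehicle libraries. The vehicle libraries averaged 13837 ± 2048 and the IC libraries 10525 ± 362 (SD), a log2 fold change of -0.39 ± 0.102 (SE), or 1.31-fold lower. Without vehicle 2 the fold change was -0.29.

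Ntrk3, the TrkC gene, lies on the minus strand of chromosome 7 (chr7:78175959-78738012). It was read at 2498, 1933 and 1750.1 normalized counts after IC and at 2825, 2899 and 2879 after vehicle. All IC values were below all vehicle values, and the vehicle libraries differed from each other by a coefficient of variation of only 1.34%. The log2 fold change was -0.48 ± 0.127 (SE), which is 1.39-fold lower after IC, and -0.47 without vehicle 2. Ntrk2 has 10 annotated transcripts and Ntrk3 has 20, among them forms without the kinase domain, and a count per gene sums them.

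The sequence just before the start of the gene is shown for Ngfr and Ntrk2. The Pearson r between their log2 normalized counts over the 6 libraries was 0.959. Both genes were chosen on the difference between the groups, and 343 genes had an r above 0.9 with Ngfr, so this r is only a description. Both stretches are RefSeq promoter sequence on GRCm38.p6, printed 5′ to 3′ on the strand of the gene and ending where the annotated gene begins. Capitals mark GGGCGG, the core of the GC box that Sp1 family factors bind, where it occurs on the printed strand. The Ngfr stretch is chr11:95587736-95587948 on the minus strand, and the Ntrk2 stretch is chr13:58806319-58806568 on the plus strand.
Ngfr: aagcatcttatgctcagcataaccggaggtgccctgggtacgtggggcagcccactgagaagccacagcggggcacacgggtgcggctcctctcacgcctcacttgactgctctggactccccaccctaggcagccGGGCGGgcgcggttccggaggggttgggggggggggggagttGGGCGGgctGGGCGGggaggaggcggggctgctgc
Ntrk2: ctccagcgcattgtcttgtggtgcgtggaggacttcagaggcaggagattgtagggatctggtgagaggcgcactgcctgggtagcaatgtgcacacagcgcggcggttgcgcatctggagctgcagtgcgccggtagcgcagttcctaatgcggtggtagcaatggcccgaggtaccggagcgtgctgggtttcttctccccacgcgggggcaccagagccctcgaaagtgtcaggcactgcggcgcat
The Ngfr stretch has 213 bases, of which 70.9% are G or C, and holds the GC box at 3 places on this strand. The Ntrk2 stretch has 250 bases, 62.8% of them G or C, and holds none of these 6 letters in order. Over the 250 bases before the start, the median GC content of all 32851 promoter entries was 52.4% and 32.7% held GGGCGG on either strand. Such windows were found for 6 of the 8 genes, 14 windows in all, and 5 of them had the GC box. The letters TATAAA stood in 1 of the 14, a Gdnf window, against 12.4% of all windows. The pattern of the site that STAT factors bind, TTCNNNGAA, stood in 1, a Bdnf window, against 7.02%. The full cAMP response element, TGACGTCA, stood in 0 of the 14 and in 1.55% of all windows. These are matches of letters, and no factor's binding was measured.

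The 3 ligand genes differed widely in level. Ntf3, which encodes neurotrophin 3 (chr6:126101412-126166910, minus strand), was the abundant ligand, with normalized counts of 985, 979 and 1288 after IC and 1159, 1314 and 1578 after vehicle. The highest IC library lay above the lowest vehicle library, so the groups overlapped. Its log2 fold change was -0.32 ± 0.155 (SE).

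Bdnf (chr2:109674700-109727007, plus strand) encodes brain-derived neurotrophic factor and was scarce, at 24 to 141 raw counts per library. Normalized counts were 26.4, 61.0 and 31.4 after IC and 116, 83.1 and 29.2 after vehicle. Vehicle 3 was as low as the IC libraries, and the groups overlapped. The log2 fold change of -0.95 had an SE of 0.579 and a 95% interval from -2.08 to 0.19, and its vehicle libraries differed by up to 3.96-fold, so a difference was not detectable in these libraries.

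Gdnf (chr15:7810846-7837575, plus strand), the ligand of GFRA1, was at 9 to 80 raw counts. It had normalized counts of 38.6, 33.1 and 8.06 after IC against 65.6, 54.8 and 53.5 after vehicle. Every IC value was below every vehicle value, with IC 3 far below the other IC libraries. The log2 fold change was -1.13 ± 0.622 (SE), with a 95% interval from -2.35 to 0.08.

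Gfra1 (chr19:58235604-58455909, minus strand), the co-receptor gene for GDNF, gave 2315, 2047 and 2057 normalized counts after IC and 2921, 2338 and 2361 after vehicle. By these counts the groups touched without overlapping, with IC 1 just under the lowest vehicle library. Taken per exon length and scaled to the same total, IC 1 stood at 38.2 and vehicle 2 at 37.4, so there the groups overlapped. The log2 fold change was -0.25 ± 0.117 (SE).

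Sort1 (chr3:108284082-108361511, plus strand), the sortilin gene, was the exception. Its normalized counts of 1387, 1089 and 1252 after IC lay among the 1309, 1164 and 1094 after vehicle. The log2 fold change was 0.06 ± 0.136 (SE), with a 95% interval from -0.20 to 0.33, and it ranged from -0.02 to 0.15 when single libraries were left out.

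**Figure D1:**
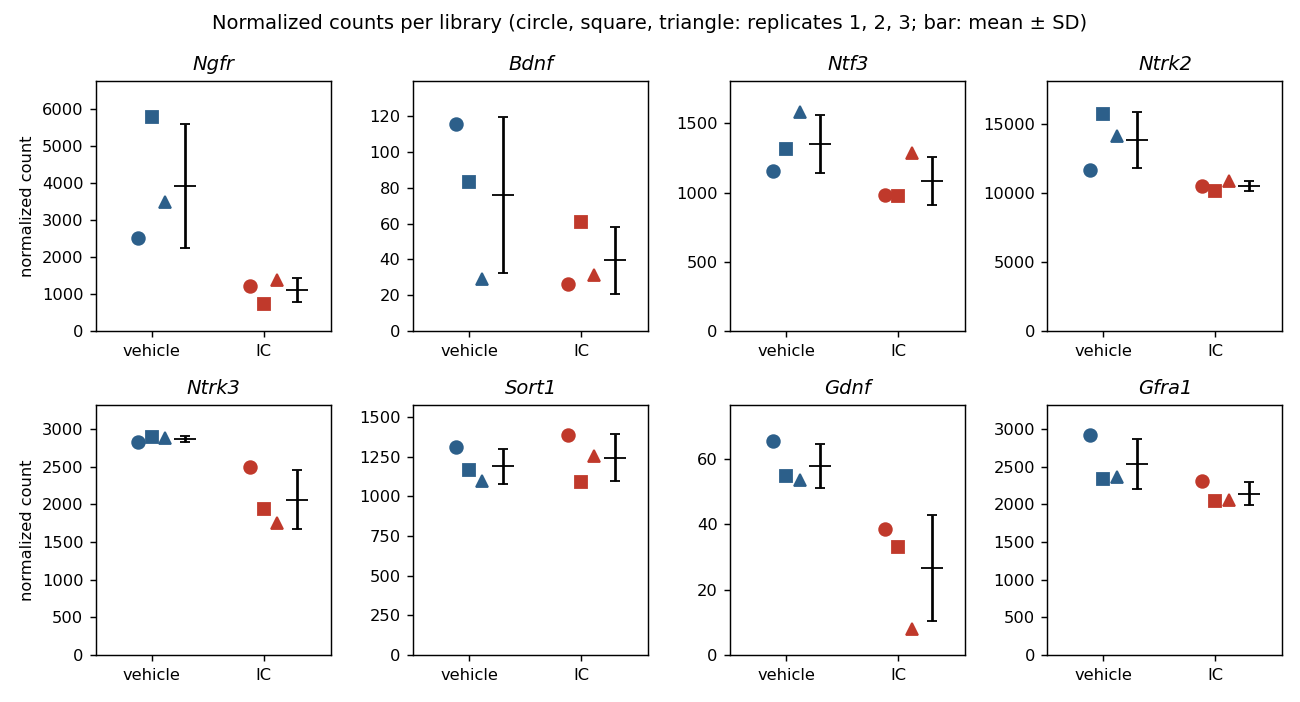
Normalized count (vertical axes, from 0) of each of the 8 genes in the 3 vehicle (blue) and 3 IC (red) libraries, with circles, squares and triangles for replicates 1, 2 and 3 and black bars for the mean ± SD. Ngfr, Ntrk2, Ntrk3, Gdnf and Gfra1 have every IC library below every vehicle library, whereas the groups of Bdnf, Ntf3 and Sort1 overlap.

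Across the 8 genes, 7 had a log2 fold change below 0, and the median was -0.44. In 5 of the 8, all IC libraries lay below all vehicle libraries by normalized count, a pattern that 7.67% of all tested genes had. For Gfra1 this depended on the scaling. DESeq2 called 3 of the 8, Ngfr, Ntrk2 and Ntrk3, all lower after IC, where it called 1.07% of all tested genes lower and 2.1% in either direction. Since the genes were chosen by this same comparison, nothing is read from these counts or from the calls by other fits that follow. edgeR, which called 0.125% of all tested genes lower, called Ngfr alone, as did limma-voom. Ngfr kept its call without any 1 of the 6 libraries. Ntrk2 kept it without IC 3 or vehicle 1 and lost it without any of the other 4 libraries, with log2 fold changes from -0.51 to -0.29, and it also lost it with 1 surrogate variable in the fit. Ntrk3 kept it without IC 1 or vehicle 1 and lost it without any of the other 4, with values from -0.64 to -0.37.

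**Figure D2:**
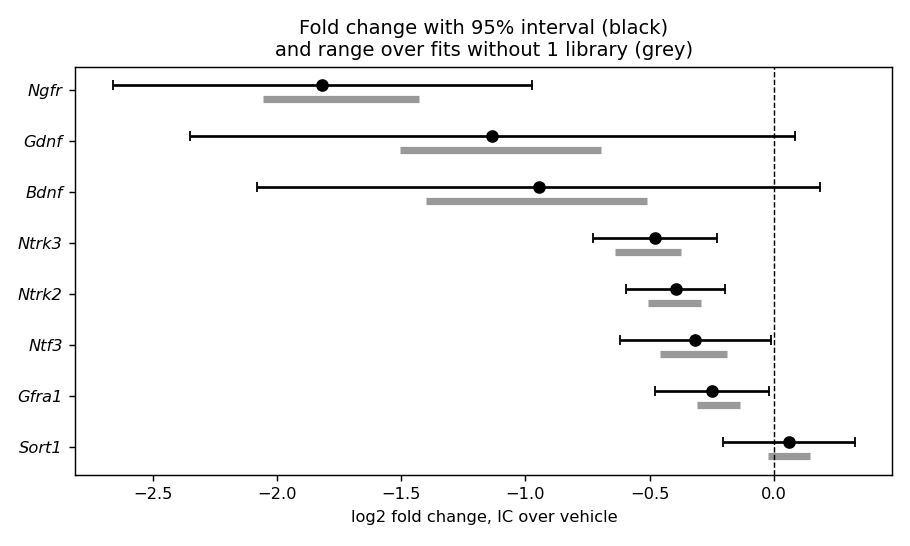
Log2 fold change of IC over vehicle (horizontal axis) for the 8 genes, as black points with their 95% intervals from the DESeq2 fit of all 6 libraries, above grey bars for the range over the 6 fits without 1 library each. Ngfr is farthest from 0 at -1.82, Sort1 lies at 0.06, and the scarce genes Gdnf and Bdnf have intervals that reach past 0.

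Levels were compared between genes per length, as TPM (transcript counts per length, scaled to the same total in every library), with the length of all exons of a gene joined. In the vehicle libraries Ngfr stood first, with 101 ± 41.6 TPM (SD, n = 3), followed by Ntf3 with 69.9 ± 10.2 and Ntrk2 with 63.6 ± 8.32. Without vehicle 2, Ngfr had 66.2 and 89.5 TPM. The ranges of neighbours in this order overlapped, so their order does not hold up against the spread. Below them came Gfra1 with 41.3 ± 6.19 TPM, Sort1 with 13.98 ± 1.54 and Ntrk3 with 8.45 ± 0.048, each with a range clear of its neighbours. Gdnf with 1.40 ± 0.188 TPM and Bdnf with 1.09 ± 0.641 were last, and their ranges overlapped.

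After IC, Ngfr was at place 4 of 8 instead of place 1. It stood at 29.1 ± 8.17 TPM, behind Ntf3 with 56.9 ± 8.36 and Ntrk2 with 49.2 ± 0.891. Its range of 19.8 to 35.4 TPM overlapped that of Gfra1, at 33.3 to 38.2, and was clear of Sort1, at 13.2 to 16.5. Ntrk3 with 6.16 ± 1.20, Gdnf with 0.655 ± 0.404 and Bdnf with 0.576 ± 0.280 TPM kept the last 3 places. The place of Ntrk2 rests on the length used: with its longest transcript of 8744 bases in place of 19292 joined exon bases, it came first in both groups, at 111 TPM after vehicle, with a range that overlapped that of Ngfr, and 85.7 TPM after IC.

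**Figure D3:**
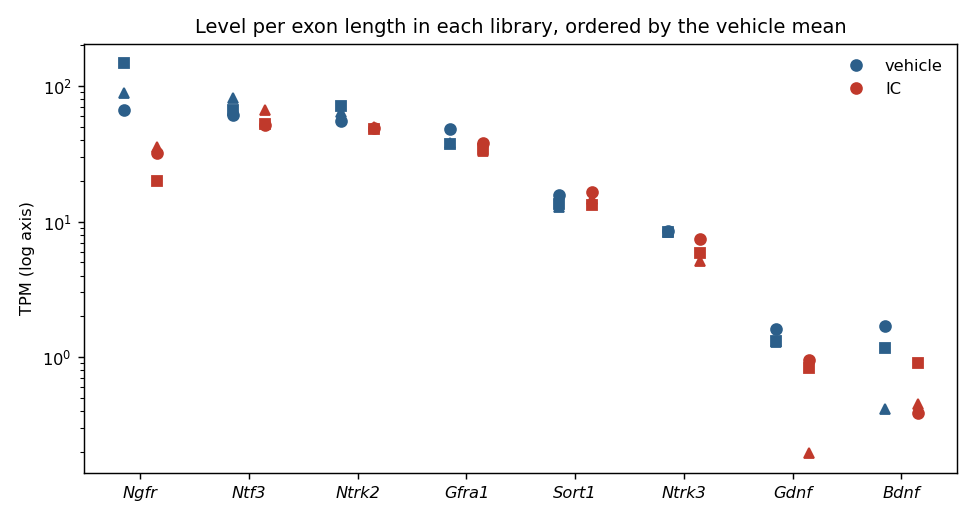
TPM (vertical log axis) of the 8 genes in each library, ordered by the vehicle mean, with vehicle in blue, IC in red and the same symbols for replicates. Ngfr ranges from 66.2 to 147 TPM after vehicle and from 19.8 to 35.4 TPM after IC, while Gdnf ranges from 0.194 to 1.62 TPM and Bdnf from 0.384 to 1.69 TPM over the 6 libraries.

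Other genes of the same pathways were described from 6 lists of 73 genes, of which 71 were in the table and 67 were tested. DESeq2 called 5 of the 67, 4 lower and 1 higher after IC, against 2.1% of all tested genes in either direction, and the median log2 fold change of the 67 was 0.0002. edgeR called 0 of the 67, with 9 at an unadjusted p under 0.05, and limma-voom called 0, likewise with 9. With DESeq2, 8 of the 67 had an unadjusted p under 0.05, against 1952 of all 19925 tested genes. Among the other neurotrophin ligands and receptors DESeq2, edgeR and limma-voom each called 0 of 9, with 0 at an unadjusted p under 0.05. Sorcs2, a relative of sortilin and the gene with the highest TPM of this list, had means of 1653 ± 203 normalized counts after IC and 1560.1 ± 222 after vehicle.

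Of the GDNF family genes, DESeq2 called 1 of 10. Ncam1, which encodes a cell adhesion molecule that can serve as a GDNF receptor beside Ret, was read at 2279, 1937 and 1975 normalized counts after IC and 3177, 4021 and 2792 after vehicle. The groups did not overlap, and the log2 fold change was -0.69 ± 0.132 (SE). DESeq2 gave it an adjusted p of 5.31e-05, and edgeR an adjusted p of 0.0593. Without any 1 library the DESeq2 call held, with an adjusted p of at most 0.00614, and without vehicle 2 the log2 fold change was -0.53. Ret, the signalling kinase, had means of 1376 ± 137 after IC and 1622 ± 152 after vehicle, with a log2 fold change of -0.24 ± 0.125 (SE) and a DESeq2 adjusted p of 0.469. Gas1, a GDNF receptor relative and the most abundant gene of this list, had 921 TPM after IC and 883 TPM after vehicle.

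Inside the cell, p75 works through adaptors and is cut by a surface protease and then by gamma-secretase. In that list DESeq2 called 1 of 18, Adam10, which encodes a protease that sheds surface proteins. Its normalized counts were 3658, 3497 and 3776 after IC and 4387, 4380.04 and 4611 after vehicle, with a log2 fold change of -0.29 ± 0.0838 (SE). The DESeq2 adjusted p was 0.0266, that of edgeR 0.147. The difference was small and lost its DESeq2 call without IC 1, IC 2 or vehicle 3, with adjusted p up to 0.154. Arhgdia, the gene with the highest TPM here, had a log2 fold change of 0.17. In the list of Trk and Ret signalling adaptors, these 3 tools each called 0 of 18, with 0 at an unadjusted p under 0.05, and Sqstm1, its most abundant gene, had a log2 fold change of 0.10.

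Of the genes for proneurotrophin processing, DESeq2 called 1 of 7, the convertase gene Pcsk5, which was higher after IC. It had 4040, 4129 and 4927 normalized counts after IC and 3578, 3093 and 3488 after vehicle, a log2 fold change of 0.37 ± 0.105 (SE). Adjusted p-values were 0.0264 (DESeq2) and 0.181 (edgeR). That call was kept without IC 1 or vehicle 1 and lost without any of the other 4 libraries, with adjusted p up to 0.213. Mmp3, a matrix protease and the most abundant gene of the list, had a log2 fold change of 0.38 ± 0.122 (SE) and a DESeq2 adjusted p of 0.061.

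Of 5 other neurotrophic factors, DESeq2 called Ptn and Mdk, which encode the related heparin-binding factors pleiotrophin and midkine, both lower after IC. Ptn had 245, 240 and 199.8 normalized counts after IC and 414, 485 and 419 after vehicle, a log2 fold change of -0.95 ± 0.204 (SE), and adjusted p-values of 0.00055 (DESeq2) and 0.0585 (edgeR). Its groups were far apart, and the DESeq2 call held without any 1 library. Mdk had 218, 192 and 239 after IC and 294, 471 and 372 after vehicle, a log2 fold change of -0.81 ± 0.240 (SE), and adjusted p-values of 0.0355 (DESeq2) and 0.176 (edgeR). Without vehicle 2 the log2 fold change of Mdk was -0.62. Its call was kept only without vehicle 1, with adjusted p up to 0.277 among the other 5 fits. Manf, a stress-induced secreted factor and the most abundant gene of the list, had a log2 fold change of 0.47 (SE 0.1496) and a DESeq2 adjusted p of 0.0615.

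Ngfr, Ntrk2 and Ncam1 are known from cells other than fibroblasts, so marker lists of such cells were read in the same libraries. The markers of muscle satellite cells and myoblasts, the stem cells and precursors of skeletal muscle, were lower after IC. Their summed level was 71.7, 53.2 and 34.5 CPM after IC and 128, 144 and 88.5 CPM after vehicle, and in all 6 tested markers of 7 every IC library lay below every vehicle library. DESeq2 called 3 of the 6 lower, and edgeR and limma-voom called 0, each with 6 at an unadjusted p under 0.05. Pax7, which marks satellite cells, had 651, 314 and 135 normalized counts after IC and 1210.2, 1724 and 717 after vehicle, with a log2 fold change of -1.73 ± 0.686 (SE) and a DESeq2 adjusted p of 0.206. Without vehicle 2 that fold change was -1.39. Their part in the Ngfr difference was not tested. Both Ngfr and Pax7 were highest in vehicle 2, as was the sum of the list, while Ngfr was lowest in IC 2 and Pax7 in IC 3. Over the 6 libraries the Pearson r of Ngfr with Pax7 was 0.727, and 0.0768 after the group means were taken off, and with Myf5, another marker of the list, 0.683 and -0.275.

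The Schwann cell markers, which mark the glia of peripheral nerve, did not follow the groups. Their sum was 162, 88.3 and 62.9 CPM after IC and 126, 64.4 and 73.6 CPM after vehicle, and DESeq2, edgeR and limma-voom called 0 of 10, each with 1 at an unadjusted p under 0.05. Sox10, the glial transcription factor, had means of 34.9 ± 42.4 normalized counts after IC and 24.5 ± 8.50 after vehicle.

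Endothelial markers summed to 275, 280 and 208 CPM after IC and 335, 280 and 324 CPM after vehicle. All 10 had a log2 fold change below 0, with a median of -0.48, where 50.4% of all tested genes were lower after IC. DESeq2 called 2 of them lower, Kdr and Cdh5, with log2 fold changes of -0.70 and -0.74, and not Pecam1. The call of Kdr held in all 6 fits without 1 library and that of Cdh5 in 1. edgeR called 0 of the 10 and limma-voom 1. Mural cell markers summed to 501 to 617 CPM after IC and 620 to 668 CPM after vehicle, with 1 of 9 called lower. Rgs5, a pericyte gene, was at 544 ± 473 normalized counts after IC and 889.5 ± 144 after vehicle. The neuron markers summed to 38.5 to 41.8 CPM after IC and 24.7 to 32.7 CPM after vehicle. All 6 tested had a log2 fold change above 0, and DESeq2 called Tac1 alone, higher. Tac1, with the most counts of the list, had means of 1054 ± 154 normalized counts after IC and 618 ± 53.4 after vehicle. Uchl1, the next, had 525 ± 56.9 after IC and 515 ± 113 after vehicle. The 5 lining fibroblast markers went both ways: DESeq2 called 1 higher and 2 lower after IC, and edgeR called 0, with 4 at an unadjusted p under 0.05. Prg4, the lubricin gene, had 20768 ± 2989 against 10842 ± 2821 normalized counts, with adjusted p-values of 0.0103 (DESeq2) and 0.0541 (edgeR), and its DESeq2 call was lost in 3 of the 6 fits without 1 library. Clic5 and Tspan15 were called lower, with log2 fold changes of -0.68 ± 0.1497 and -0.90 ± 0.234 (SE) and DESeq2 adjusted p of 0.000825 and 0.00835. The call of Clic5 held in all 6 fits without 1 library and that of Tspan15 in 2. The sum of the 5 lay between 731 and 847 CPM after IC and between 528 and 657 CPM after vehicle. Pdgfra, a general fibroblast marker, had 45589.9 ± 2089.6 against 50797 ± 3839.9 normalized counts, with a DESeq2 adjusted p of 0.422. Skeletal muscle fibre markers were lower, at 13.8 to 28.1 CPM after IC and 25.2 to 57.5 CPM after vehicle, with 3 of 9 called. The sums of the macrophage and leukocyte, perineurial cell and chondrocyte markers overlapped between the groups. Of the 9 macrophage and leukocyte markers 6 were in the table, and Ptprc, the general leukocyte gene, was not. B cell and adipocyte markers stayed under 4 CPM. What these shifts contribute to the levels of Ngfr and the Trk genes was not tested.

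**Figure D4:**
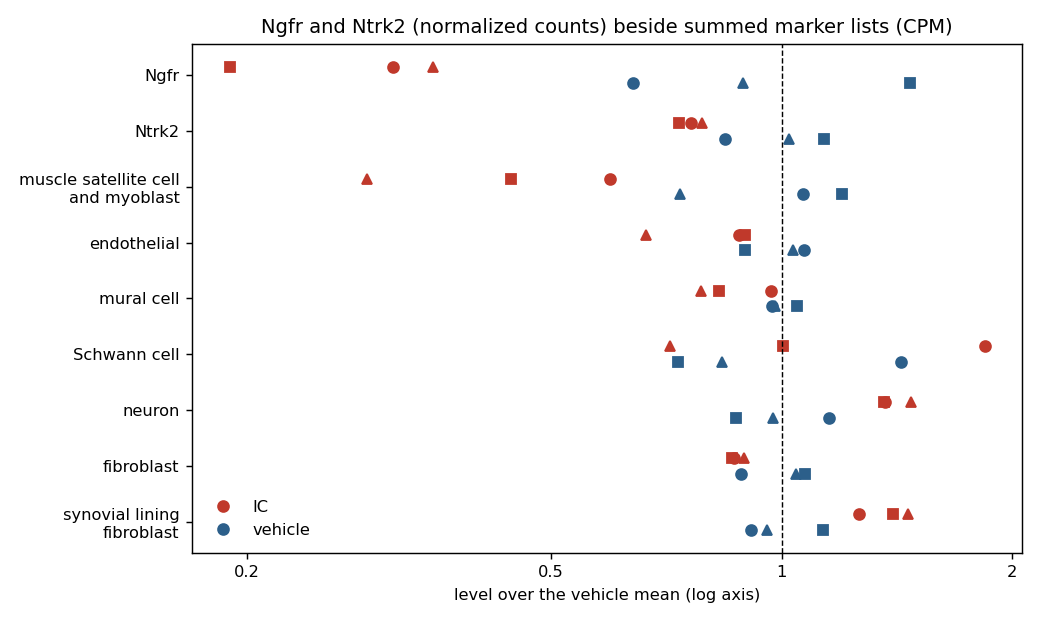
Level over the mean of the vehicle libraries (horizontal log axis) for Ngfr and Ntrk2 (normalized counts) and for summed marker lists (CPM), 1 point per library, vehicle in blue and IC in red, with circles, squares and triangles for replicates 1, 2 and 3. The satellite cell and myoblast markers are lower after IC along with Ngfr, and the Schwann cell markers overlap between the groups. The summed lining fibroblast list, in which Prg4 was called higher and Clic5 and Tspan15 lower, is higher after IC. The neuron list, in which Tac1 alone was called, is higher too.

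The genes most like Ngfr were sought by Pearson's r of log2(normalized count + 1) over the 6 libraries, among 13434 other genes with a mean of at least 100. An r above 0.9 was reached by 343 of them (2.55%), and the points share the 2 groups, the library and its scaling, so r is given as a description. The 10 highest, with r from 0.989 to 0.996, were Angpt2, Olfm2, Gpam, Akr1c14, Zscan29, Mdk, Nrip1, Colec12, Ncbp2 and Astn2. All 10 were lowest in IC 2 and highest in vehicle 2, as Ngfr was. After the group means were taken off, r was between 0.949 and 0.996. The 10 were picked by their r over these same libraries, so this range is no check of their likeness. Akr1c14, which encodes a steroid-metabolizing aldo-keto reductase, came closest to Ngfr in size: its normalized counts were 493, 258 and 569.9 after IC and 829, 2405 and 1399.5 after vehicle, with a log2 fold change of -1.81. Angpt2, the gene of angiopoietin 2, had the highest r, but its log2 fold change was only -0.33. Gpam, the gene of an acyltransferase of lipid synthesis, had a log2 fold change of -0.60, and Olfm2, of a secreted glycoprotein, of -0.83. The fold changes of the 10 ran from -1.81 to -0.14, and DESeq2 called 5 of them, 2 of which it also called without vehicle 2. Without that library the log2 fold change was -1.34 for Akr1c14, -0.64 for Olfm2 and -0.48 for Gpam.

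Among the neurotrophin genes themselves, Ntrk2 followed Ngfr most closely, with r of 0.959, and 0.870 after the group means were taken off. For Ntrk3 the values were 0.782 and 0.0922, for Ntf3 0.738 and 0.453, for Gfra1 0.492 and -0.463, and for Sort1 -0.152 and 0.133. Ncam1 had 0.926 and 0.631. After the group means were taken off, Ntrk2 had the highest value of these receptor genes. Of the cell type markers, Pdgfra had 0.937 and 0.949, while Pecam1 had 0.208 and -0.782.

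**Figure D5:**
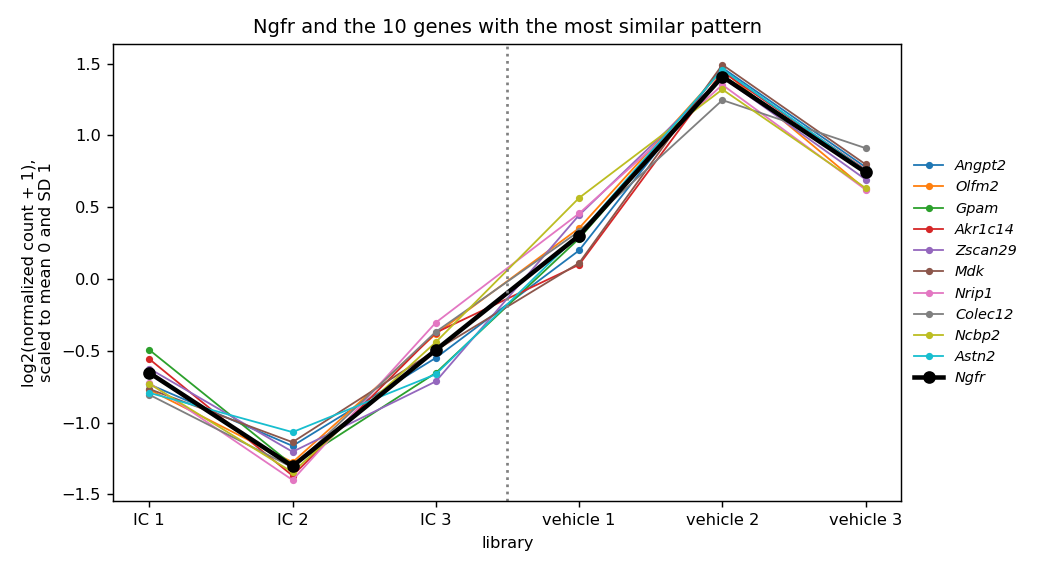
Log2(normalized count + 1) of Ngfr (black) and of the 10 genes most like it (colours), each scaled to mean 0 and SD 1 over the 6 libraries (vertical axis), with lines that only join the points of a gene. Ngfr and all 10 are lowest in IC 2 and highest in vehicle 2.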

How the data were processed

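Fibroblasts sorted from mouse synovium gave 6 total RNA libraries, 3 IC and 3 vehicle, which the sample labels put into their groups. The authors deposited raw counts for each gene, made with Trim Galore, FastQC, HISAT2 (genome build mm10) and featureCounts. Tool versions, the annotation and the strand setting are not given in the sources used here. Without them, reads of antisense genes that share exon bases with Bdnf, Sort1 and Gfra1 cannot be told apart from those of the genes. The library kit differs between the labels and the methods, and a batch correction with sva is stated without detail. The table and the 6 single files held identical counts.

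The 8 genes, the pathway and marker lists and the tests were chosen with earlier results of these data known. The Wald test of DESeq2 (version 1.42.0), treatment being the only term, was run on the 19925 genes that reached 10 counts in 3 or more libraries. Calls needed an adjusted p (Benjamini-Hochberg) below 0.05, and 3870 genes had none. Fold changes are unshrunken. The p-values set the group difference against a spread between these libraries that each tool estimates partly from other genes. TPM used exon lengths of GENCODE M21, in which 23899 symbols (98.2%) had a gene, and CPM the total counts. Named were the 8 genes, pathway genes called by DESeq2, the gene with the highest TPM of each list, the 10 genes most like Ngfr, and fixed markers. Ret, Myf5, Clic5, Tspan15, Kdr, Cdh5, Tac1 and Uchl1 were named outside this rule, with their values seen. Some genes of the lists are not reported here.

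Alternatives were edgeR (version 4.0.16), limma-voom (version 3.58.1), TMM and total-count scaling, no filter, a mean of at least 100, a block for the replicate number, sva (version 3.50.0) with 1 surrogate variable, leaving out each library, and the longest transcript as length. The fits were tested on simulated data with known changes. Promoter motifs and GC content were counted, on both strands, in the 250 bases before each start in RefSeq's promoter table, whose further 50 bases were not used.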

Additional observations from a re-analysis of the deposited data

How the results depend on the processing

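The number of called genes depended most on the tool: edgeR called 37 and limma-voom 62, against 419 by DESeq2. Of the 8 genes, edgeR and limma-voom each called 1 (Ngfr) against 3, and of the 67 pathway genes 0 each against 5. Leaving out 1 library each gave 281 to 677 called genes, 1 to 3 of the 8 and 2 to 6 of the pathway genes. The count of 677 came without vehicle replicate 1. Of the 8, only Ngfr was called without IC replicate 2, vehicle replicate 2 or vehicle replicate 3, and of the pathway genes 2 were called without IC replicate 2 or vehicle replicate 3 and 3 without IC replicate 3.

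Replicate numbers did not pair the libraries: over 13435 genes, the correlation of the deviations from the group means was -0.0918 for number 1, -0.164 for number 2 and 0.0250 for number 3. With a block for the replicate number, 320 genes were called, 2 of the 8 (Ntrk2 and Ntrk3, not Ngfr) and 2 pathway genes (Ncam1 and Ptn). With 1 surrogate variable, 334 genes and 2 of the 8 (Ngfr and Ntrk3) were called. TMM scaling, total-count scaling, no filter and a mean of at least 100 each called 3 of the 8. The log2 fold changes of Ngfr, Ntf3, Ntrk2, Ntrk3 and Gfra1 kept their sign in all 14 alternatives, those of Bdnf and Gdnf in all 13 that gave a value, and that of Sort1 in 13 of 14. The cause of these changes was not tested. Bdnf and Gdnf had 9 to 141 counts per library and no value under the mean of at least 100.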
